A study of Mus musculus with 2 samples.

Results

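Venous-leaning endothelial cells (ECs) of the mouse stria vascularis (SV) were picked out of the Tie2-GFP library by a score that sets arterial against venous transcripts in each cell. A cell entered when at most 5% of its unique molecular identifiers (UMIs) were mitochondrial, at least 4 of the 6 EC genes Pecam1, Cdh5, Cldn5, Flt1, Egfl7 and Ramp2 had a UMI, and at most 1 of the 6 mural genes Rgs5, Pdgfrb, Vtn, Notch3, Kcnj8 and Abcc9 did. The score was ln(1 + 10000 A/T) minus ln(1 + 10000 V/T), where A is the number of UMIs of Gja4, Gja5, Bmx, Sema3g, Vegfc and Hey1, V the number of UMIs of Nr2f2, Slc38a5 and Vcam1, and T all UMIs of the cell. Members were chosen by these measured values as the cells at or below the 25th percentile of the score, so the 9 score genes are described here and support nothing. Of 633 barcodes, 405 met the mitochondrial limit, 372 the EC gate and 336 also the mural limit. The 25th percentile was exactly 0, and 154 of the 336 cells (45.8%, exact Clopper-Pearson 95% interval 40.4 to 51.3) lay at or below it.

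The SV, an epithelium of the lateral wall of the cochlea that is rich in capillaries, had been dissected from 20 cochleae of 10 Tie2-GFP mice and, for the other library, from 10 NG2-DsRed mice with as many cochleae, all 1 to 3 months old and with no treatment named. Tissue of each line was pooled, digested with collagenase IV and papain, and, per the labels, sorted for the reporter, although the study's methods describe sorting as a step used where enrichment was needed. In Tie2-GFP mice GFP is under the promoter of Tek, an endothelial receptor gene, and can also mark some blood cells, while in NG2-DsRed mice the reporter follows Cspg4, a gene of pericytes (PCs). Each line gave 1 library, with 5432289 UMIs in the 633 Tie2-GFP barcodes and 1232599 UMIs in the 201 NG2-DsRed barcodes, and the libraries shared 0 barcodes. With all mice of a line in 1 pool there is no replicate. No test between groups of cells was therefore possible, and the 95% intervals below cover counting error only.

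Along a vascular bed, ECs pass gradually from arterial through capillary to venous states, which differ in transcription factors, transporters and adhesion molecules. Nr2f2 encodes COUP-TFII, the nuclear receptor that holds venous identity and represses arterial Notch genes. Slc38a5 encodes a glutamine transporter known from venous ECs of the brain, and Vcam1 an adhesion receptor for leukocytes that venules display during inflammation. In the SV the vessels are mainly a capillary network that carries the blood-labyrinth barrier, with few large veins.

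The cells at or below the cutoff were of 2 kinds by the UMIs behind their score. Of the 154, 73 cells (21.7% of the gate, 17.4 to 26.5) had a score below 0, that is, more venous than arterial UMIs, and 81 cells scored exactly 0. Among those 81 cells, 58 had no UMI of any score gene and 23 had equal numbers of venous and arterial UMIs. The 58 cells without a score gene were shallower, with a median of 5279.5 UMIs, than the 23 with equal numbers, with a median of 7431. The 3 scores nearest to 0 were -0.232, -0.266 and -0.306 on the venous side and 0.198, 0.223 and 0.253 on the arterial side. The 154 cells are therefore called low-score cells here, the 73 cells below 0 are given beside the 81 at 0, and the 182 ECs above 0 are the comparison. Where 4 ranges are given, the 182 cells are split at the 75th percentile of the score, 1.50, into 98 intermediate cells and the 84 of the highest, most arterial range.

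**Figure D1:**
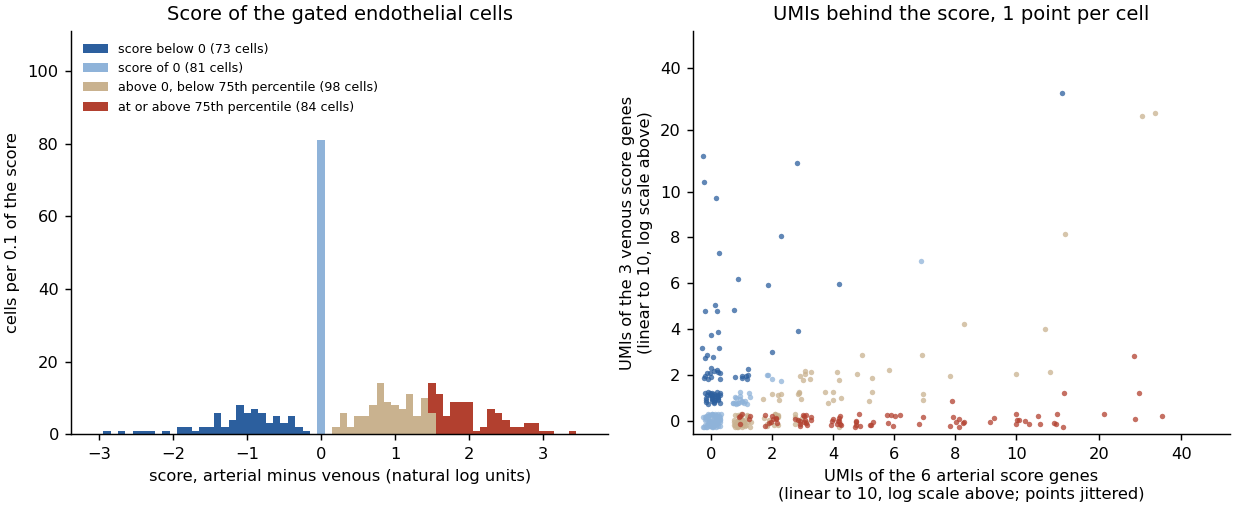
The left panel is a histogram of the score (natural log units) for the 336 gated ECs of the Tie2-GFP library, stacked by range. The right panel plots the UMIs of the venous against those of the arterial score genes, 1 jittered point per cell, on axes that are linear to 10 and logarithmic above. The column of 81 cells at 0 stands apart, and most of the 73 cells below 0 lie at 1 or 2 venous UMIs.

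The depth of the groups was close. Low-score cells held a median of 7159 UMIs (range 1033 to 27167) and 2561.5 genes, and the other ECs 7666 UMIs (1177 to 32595) and 2630 genes. Within the low-score cells, the 73 below 0 were deeper, at 8034 UMIs, than the 81 at 0, at 6308. The median mitochondrial share was 1.71% in low-score and 1.72% in the other ECs. Summed over cells, the 73 cells gave 657985 UMIs, the 81 cells 560682 and the 182 other ECs 1594528. These sums set the precision of each level, given below as UMIs per 1000000 UMIs summed over the cells of a group (CPM).

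The 73 cells below 0 were placed there by different venous score genes. Of the 73 cells below 0, 24 held Nr2f2 alone, 25 Slc38a5 alone and 3 Vcam1 alone, 16 held Nr2f2 with Slc38a5, 2 Nr2f2 with Vcam1, and 3 held all 3 genes. The evidence per cell was thin, since 31 of the 73 cells were placed by a single venous UMI, and so could hold only 1 of the genes. Of the 42 with 2 or more, 21 held at least 2 of the genes. Nr2f2, which lies at chr7:70351944-70366735 on the minus strand (GRCm38), gave 85 UMIs in the 73 cells, 20 in the 81 at 0, 32 in the 98 intermediate cells and 1 in the highest-scoring cells. The counts of Slc38a5 (chrX:8271133-8280179, plus strand) were 100, 6, 18 and 0 in the same order. Vcam1 (chr3:116109949-116129688, minus strand) did not follow this order, with 47, 7, 65 and 5 UMIs, and 30 of the 47 came from a single cell.

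A UMI of Nr2f2 was found in 39.6% of low-score cells and 12.6% of other ECs, and one of Slc38a5 in 32.5% and 7.69%. In 132 barcodes with at least 3 markers of the intermediate or marginal cells of the SV, which were not gated as ECs and had a deeper median of 13402.5 UMIs and a higher median mitochondrial share of 10.4%, above the limit set for ECs, the shares were 12.9% for Nr2f2 and 0.758% for Slc38a5. Thinned to 3282 UMIs per cell, with 21 low-score cells, 13 other ECs and 17 of the 132 barcodes too shallow to count, the shares of Nr2f2 were 23.1%, 5.37% and 6.02%. For Slc38a5 the thinned shares were 17.5%, 4.04% and 0.116%. Because the score subtracts both genes, the shares of the low-score and the other ECs follow from the rule and are given as a description.

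Some of the venous genes that the score did not use were higher in the low-score cells. Levels were compared for 6287 genes with at least 50 UMIs over all 336 ECs, without the 21 genes of the gate and score and without mitochondrial and ribosomal genes. A gene is counted as higher or lower when its summed level differed at least 1.5-fold. Of all genes, 271 (4.31%) were higher and 308 (4.9%) were lower in low-score cells than in the other ECs, and the median log2 ratio over all genes was -0.00084. Of 15 further venous genes, 10 had enough UMIs to be compared, 5 were higher, 0 were lower, and their median log2 ratio was 0.56. Among the 5 higher genes were Lcn2, Flrt2, Icam1 and Vwf. The classical venular genes Ackr1 and Selp had 0 UMIs in all 336 ECs, which allows up to 1.07 CPM, and Sele, Il1r1 and Aplnr had too few UMIs to be compared.

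Flrt2, a transmembrane protein of cell guidance that lies at chr12:95692226-95785215 on the plus strand, and Vwf, the clotting protein that ECs store in Weibel-Palade bodies (chr6:125546774-125686679, plus strand), were among the higher genes. Flrt2 was counted 61 times in low-score cells, 50.1 CPM (38.3 to 64.3), and 29 times in the other ECs, 18.2 CPM (12.2 to 26.1), a log2 ratio of 1.45 (0.80 to 2.15). Its level was 62.3 CPM in the 73 cells below 0, 35.7 at 0, 17.0 in intermediate cells and 19.6 in the highest-scoring cells. Among the 73 cells 28.8% (18.8 to 40.6) had a UMI, against 10.99% (6.84 to 16.5) of the other ECs and 0.758% of the 132 non-endothelial barcodes. After thinning, these shares were 16.8%, 5.59% and 0.367%.

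Vwf stood at 260 CPM (232 to 290) and 167 (147 to 188), with a log2 ratio of 0.64 (0.40 to 0.88). Per cell, Vwf had a median of 1.79 UMIs per 10000 in low-score cells (0 to 12.5) and 0 in the other ECs (0 to 21.1), so the ranges overlapped fully. The level stepped down with the score, from 280 CPM below 0 over 237 at 0 and 214 in intermediate cells to 109 in the highest-scoring cells. Emcn, the sialomucin endomucin of venous and capillary ECs, was detected in 91.6% of low-score cells and gave a log2 ratio of 0.37 (0.24 to 0.50), under the 1.5-fold threshold. Tmem252, another gene of the venous list, was nearly level, at 1573 and 1484 CPM.

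Lcn2, the siderophore-binding lipocalin 2, and Icam1, a receptor for leukocyte integrins, did not show the gradient of Vwf in every range. Lcn2 was counted 41 times in low-score cells and 17 times in the other ECs, with 41.0 CPM in the cells at 0, 27.4 in the 73 cells below 0 and 0 UMIs in the highest-scoring cells, which allows up to 4.20 CPM. Icam1 stood at 323 CPM in cells at 0 and 318 CPM in cells below 0, against 187 CPM in the other ECs, but 1 cell gave 55 of the 181 UMIs in the cells at 0. Without the highest cell of each group the levels were 231 CPM (192 to 275) at 0, 286 (247 to 331) below 0 and 173 (153 to 195) in the other ECs. The Icam1 ratio was -0.083 when only cells between the 25th and 75th percentiles of UMIs were used, so its direction depended on cells outside that range. Within the venous list, Lrg1 differed most between the 2 kinds of low-score cells, at 125 CPM below 0 and 3.57 CPM at 0, and 43 of its UMIs came from 1 cell. Without the highest cell of each group Lrg1 was at 60.4 CPM (42.9 to 82.5) below 0 and 1.83 (0.046 to 10.2) at 0. The other ECs were at 70.1 CPM (57.7 to 84.4) for Lrg1 in this setting. Its log2 ratio was -0.50 with all low-score cells and all UMIs.

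Many arterial genes outside the score were lower. Of 21 such genes 19 could be compared, and 0 were higher, 11 were lower, 8 were within 1.5-fold and all 19 had a log2 ratio below 0, with a median of -0.82. Stmn2 was at 6.56 CPM in low-score cells and 63.3 in the other ECs, and Alpl, tissue-nonspecific alkaline phosphatase, at 9.03 and 69.6. The chemokine gene Cxcl12 was at 272 CPM (243 to 303) against 557 (521 to 595), a log2 ratio of -1.03 (-1.22 to -0.85). Sox17, an arterial transcription factor, was at 372 against 548 CPM, a ratio of -0.56 (-0.73 to -0.39) that stayed under the threshold. The arterial median was near 0 under another ranking. When cells were ranked by the 3 venous genes alone, which also changed the groups to 84 members and 252 others, the median of the arterial list was -0.090 while that of the venous list was 0.57. The cause of this shift was not tested.

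Ranked in this way, Cxcl10 had a log2 ratio of 1.82, Gpihbp1 1.35, Apod 0.84 and Flrt2 0.60 in favour of the 84 cells. On the lower side, Cxcl12 had a ratio of -1.36, Mt1 -0.92, Glul -0.83 and Slc6a6 -0.71. Mgp turned from -0.82 to 1.24, Stmn2 from -3.19 to 0.14, and Tgfb2 from -1.24 to 0.38.

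**Figure D2:**
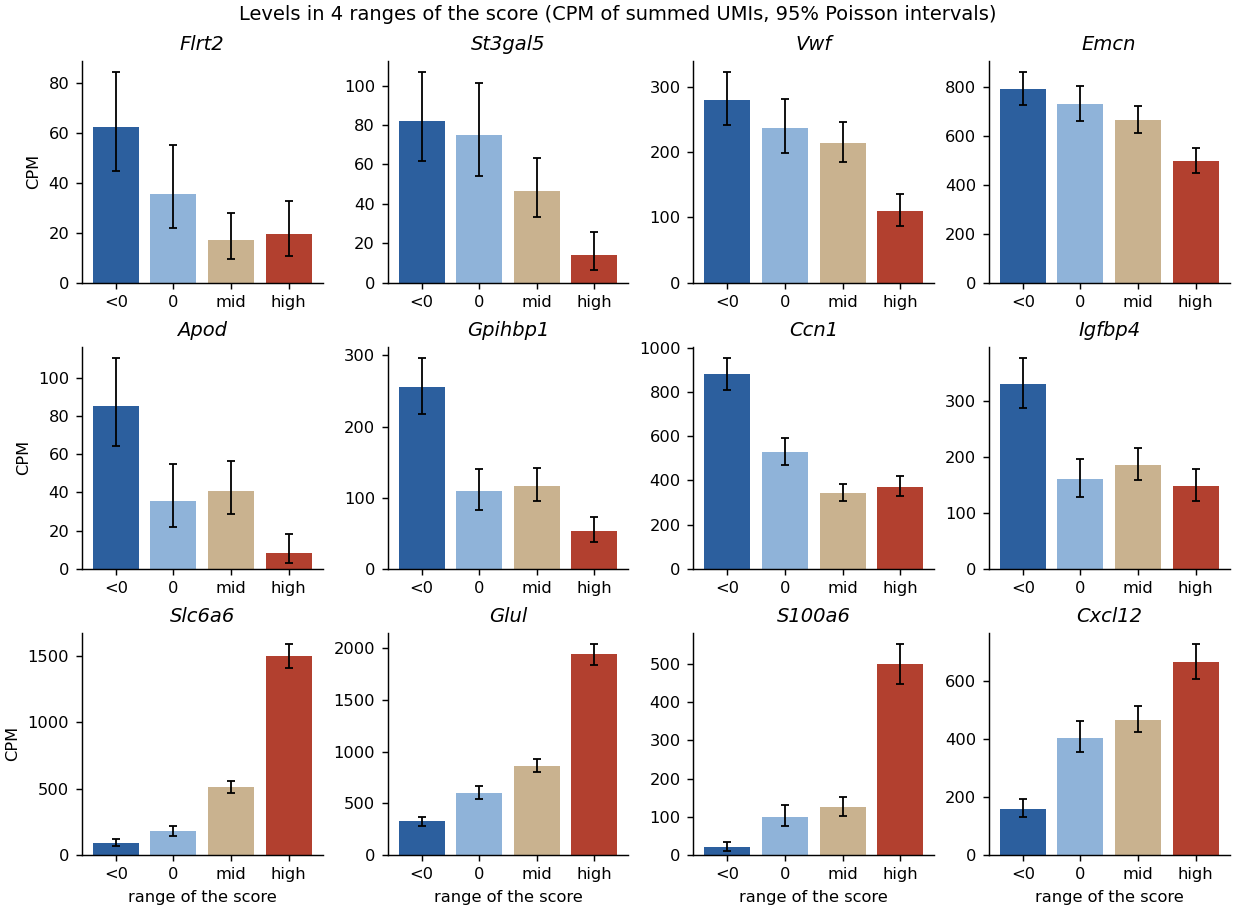
Bars give the CPM of 12 genes in the 73 cells below 0, the 81 at 0, the 98 intermediate cells and the 84 highest-scoring cells, with 95% Poisson intervals for counting error. Vwf and Emcn step down from the venous to the arterial end, Gpihbp1, Igfbp4 and Apod stand out in the cells below 0, and Slc6a6, Glul and Cxcl12 step up.

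The 12 genes with the highest ratios among 3905 well-counted genes (at least 100 UMIs, and detected in 25% of the cells of the group where they were higher) were led by St3gal5 and Apod and also held Zcchc17, Phpt1, Ch25h, Ccn2, Gpihbp1, Gatm, Ccn1, Csf1 and Clec14a, with log2 ratios from 1.29 down to 0.99. Apod, a carrier of small lipids, was at 62.4 CPM (49.1 to 78.1) against 26.3 (19.0 to 35.6). It was detected in 41.1% of the cells below 0 and 14.8% of those at 0, which became 22.0% and 10.4% after thinning. Gpihbp1, which anchors lipoprotein lipase to the capillary wall, was at 255 CPM in the cells below 0 and 109 at 0, against 88.4 in the other ECs.

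Other genes of this group were shared by both kinds of low-score cells. St3gal5, the synthase of the ganglioside GM3, was at 82.1 CPM below 0 and 74.9 at 0, and Gatm, an enzyme of creatine synthesis, at 109 and 99.9. Clec14a, an endothelial surface lectin, was at 245 and 209 CPM, against 115 in the other ECs. For St3gal5, Phpt1 and Zcchc17 a UMI was also found in 68.2%, 53.0% and 43.2% of the 132 non-endothelial barcodes, and the part of free RNA in their ratios was not tested.

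The matrix protein genes Ccn1 and Ccn2, known targets of YAP signalling, split the low-score cells in opposite ways. Ccn1 was at 880 CPM in cells below 0, 526 at 0 and 356 in the other ECs. Per cell it had a median of 1.50 UMIs per 10000 below 0 (0 to 59.3), 0 at 0 (0 to 74.8) and 0 in the other ECs (0 to 85.8), and all groups overlapped. Ccn2 was highest in the cells at 0, with 300 CPM against 196 below 0 and 114 in the other ECs, and its ratio vanished to -0.04 with the venous genes alone. The macrophage growth factor gene Csf1 and Ch25h, cholesterol 25-hydroxylase, were likewise higher at 0, with 111 and 180 CPM, than below 0, with 57.8 and 129 CPM. Csf1 had a ratio of -0.02 when the cells below 0 were set against all other gated cells.

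The 12 genes with the lowest ratios were Nebl, Cd24a, Alpl, Slc6a6, Alox12, S100a6, Col18a1, Fbln2, Glul, Plscr1, Egfl8 and Cobll1, from -3.72 to -1.19. Slc6a6, the taurine transporter, was at 130 CPM (111 to 152) in low-score cells and 954 (907 to 1003) in the other ECs, a log2 ratio of -2.87 (-3.11 to -2.63). Per cell its median was 0 in low-score cells (0 to 41.3 UMIs per 10000) and 1.17 in the other ECs (0 to 52.5), and 18.8% and 53.3% of cells had a UMI (14.0% and 47.1% after thinning). The level climbed with the score, from 91.2 CPM below 0 over 177 at 0 and 509 in intermediate cells to 1501 in the highest-scoring cells. These ranges of CPM did not overlap in their counting intervals.

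Glul, glutamine synthetase, followed the same order with 324, 599, 864 and 1941 CPM. Its median per cell was 1.68 UMIs per 10000 in low-score cells (0 to 45.9) and 8.63 in the other ECs (0 to 66.4). S100a6, a calcium-binding protein, was at 19.8, 99.9, 125 and 500 CPM, and the basement membrane gene Col18a1 at 3.04, 23.2, 28.4 and 105. Nebl, which encodes an actin-binding protein, gave 11 UMIs in low-score cells and 198 in the other ECs. Cd24a, a surface glycoprotein, was about as low in both kinds of low-score cells, at 12.2 CPM below 0 and 10.7 at 0, against 92.8 in the other ECs. Glul, Nebl, Fbln2 and Alpl were also detected in 81.8%, 47.0%, 48.5% and 44.7% of the 132 non-endothelial barcodes, and the part of free RNA in their levels was not tested.

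**Figure D3:**
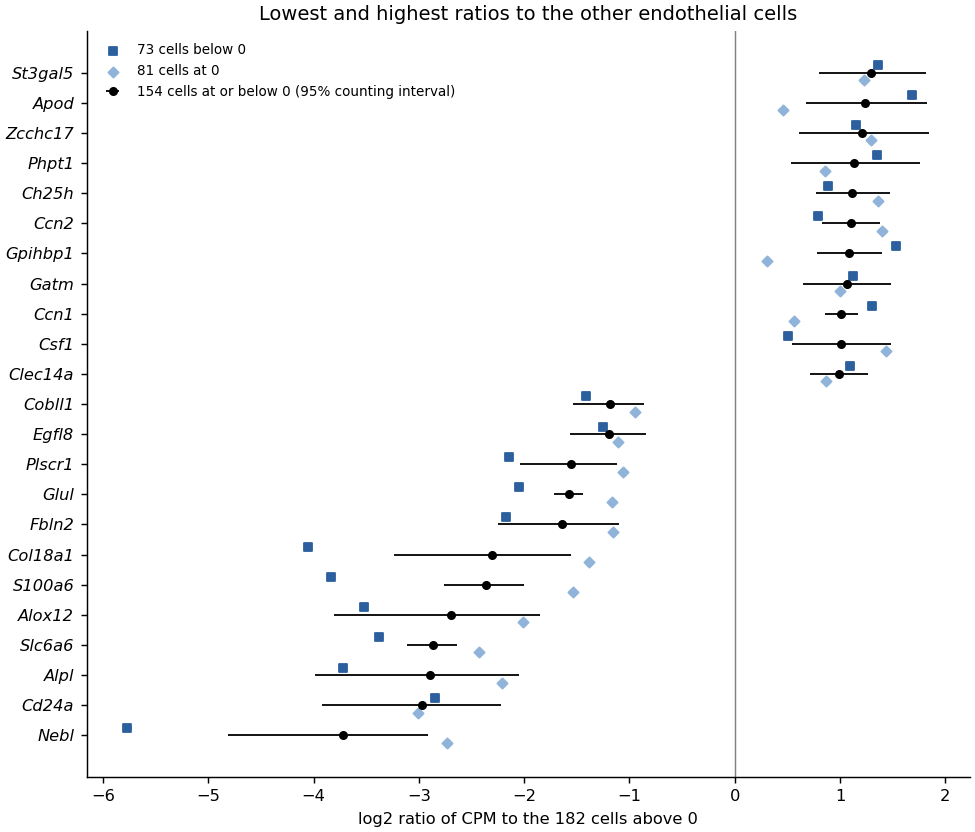
The log2 ratio of CPM to the 182 ECs above 0 is plotted for the 12 lowest and 11 of the 12 highest genes, for all 154 low-score cells (black, with 95% counting intervals), the 73 cells below 0 (squares) and the 81 at 0 (diamonds). In 11 of the 12 lowest genes the squares lie further from 0 than the diamonds, while among the highest genes Ccn2, Csf1, Ch25h and Zcchc17 lie further out in the cells at 0.

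Set directly against the 81 cells at 0, the 73 cells below 0 were higher in 173 (4.62%) and lower in 183 (4.88%) of 3748 genes with at least 50 UMIs in these cells. The largest ratios among well-counted genes belonged to Gpihbp1 (1.22, 0.80 to 1.68), Igfbp4, Ccnd1, Taok2, Sbf2, Ro60, Hnrnph2 and Tsc22d3. Igfbp4, which binds insulin-like growth factors, was at 331 CPM below 0 and 161 at 0, near the 169 CPM of the other ECs. Ccnd1, cyclin D1, was at 170 and 83.8 CPM. The lowest ratios belonged to Mt1 (-1.40, -1.72 to -1.09), Cxcl12 (-1.35, -1.71 to -1.02), Ttll7, Tcf12, Ppp1r18, Usf2, Mrpl33 and Csf1. Mt1, a metallothionein that binds zinc and copper, was at 185 CPM below 0 and 490 at 0, and the cells at 0 were close to the other ECs, at 534 CPM. A UMI of Mt1 was found in 85.6% of the 132 non-endothelial barcodes, and what free RNA adds to this difference was not tested.

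Against the 182 other ECs the 73 cells below 0 were higher in 437 (6.95%) and lower in 500 (7.95%) of the 6287 genes. The 81 cells at 0 gave 499 lower genes against the same 182. Between the 5th and 95th percentiles the log2 ratios ran from -0.73 to 0.67 below 0 and from -0.73 to 0.64 at 0. For all low-score cells, with a larger UMI sum, they ran from -0.57 to 0.55. The part of the UMI sums in these counts was not tested. For the venous list the median was 0.65 in the 73 cells and 0.55 in the 81 cells at 0, and for the arterial list -0.86 and -0.65. Both comparisons share the 182 cells. In both kinds of low-score cells the venous median was above and the arterial median below the median over all genes, which was 0.0024 and 0.0042.

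The medians of the other lists lay between -0.17 and 0.13, although single members passed 1.5-fold in either direction. Their counts stand against the 4.31% of all genes that were higher and the 4.9% that were lower, and 1 gene of a list of about 20 is near that share. Among 14 capillary genes, 10 were compared, with 2 higher (Gpihbp1 and Slc7a5), 3 lower (Spock2, Rgcc and Mfsd2a) and a median of 0.03, so that members moved both ways. Slc7a5, the large neutral amino acid transporter of barrier ECs, was at 596 CPM (553 to 641) against 388 (358 to 419). Spock2, a matrix proteoglycan, was at 478 against 889 CPM, and Mfsd2a, the lipid transporter that limits transcytosis, at 41.0 (30.5 to 54.1) against 62.1 (50.5 to 75.6). Of 29 barrier transporters, 18 were compared, with Slc7a5 higher and Slc6a6 lower, and the glucose transporter Slc2a1 gave a ratio of 0.10.

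The junction and vesicle genes were close to level. Magi1 was the only one of 9 compared tight junction genes past 1.5-fold, at a ratio of 0.59 (0.10 to 1.08). Among 15 genes of caveolae and transcytosis, Plvap, which forms the diaphragms of fenestrae and caveolae and is typical of venous and leaky vessels, was higher (71.4 against 45.8 CPM), and Pacsin2 and Mfsd2a were among 3 lower genes. Of 17 genes of the Wnt barrier pathway, Reck was higher and Tcf7 and Adgra2 were lower, and Lef1, a nuclear effector of the pathway, had a ratio of 0.33 (0.18 to 0.47).

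In the Notch pathway, which specifies arteries, the ligand genes Jag1 (-0.83) and Jag2 (-0.77) were the only 2 of 10 compared genes past the threshold, while the receptor gene Notch1 was at -0.08. None of 9 genes of the VEGF, angiopoietin and apelin list passed it, where Nrp2, a coreceptor of veins and lymphatics, was at 0.54 (0.36 to 0.72) and Nrp1, its arterial counterpart, at -0.55 (-0.81 to -0.29). Of 20 BMP and TGF-beta genes, Bmp4 was higher and Smad6, Tgfb2 and Ltbp4 were lower, but with the venous genes alone Tgfb2 turned to 0.38 and Ltbp4 to 0.65. In the coagulation list, of 12 compared, 2 genes were higher, Vwf among them, and Procr and Serpine2 were lower, where Procr turned to 0.30 with the venous genes alone.

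Among 18 compared transcription factors of ECs only Tcf15 passed the threshold, at 0.62, and it did not hold in the 73 cells alone against all other gated cells (-0.01). Of 14 compared basement membrane genes Col18a1 was lower and 0 were higher. The immediate-early list (15 compared) held 1 lower gene, Ier5, the MHC class I and interferon list (21) held 1 lower gene, Ifit3, and the Krueppel-like (10) and heat-shock (15) lists held 0 in either direction. Fos stood at -0.14, Hspa1a at -0.01 and Klf4 at 0.07. The immediate-early and heat-shock genes are known to respond to tissue dissociation. The immediate-early median was 0.096 in all low-score cells, 0.15 in the 73 cells below 0, where 2 genes were higher, and 0.27 for the cells below 0 against those at 0. The heat-shock median was -0.015, and -0.27 at the 15th percentile of the score. The part of dissociation in the results was not tested.

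Inflammatory genes had a median of -0.01 over 22 compared, with Cxcl10, Ch25h, Icam1 and Ptgs2 higher and Csf3 lower. The direction of Csf3 was not stable, since its ratio was 0.22 against the intermediate cells and 4.63 between the 25th and 75th percentiles of UMIs, and Ch25h turned to -0.14 with the venous genes alone. Cxcl10, an interferon-induced chemokine, was at 124 CPM (105 to 145) in low-score cells and 36.4 (27.6 to 47.0) in the other ECs. It was found in 18.2% and 8.79% of cells (13.7% and 5.29% after thinning) and in 0 of the 132 non-endothelial barcodes, which allows a share of up to 2.27%. In the leukocyte adhesion list (12 compared) Icam1 and Jam3 were higher and Cxcl12 was lower.

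**Figure D4:**
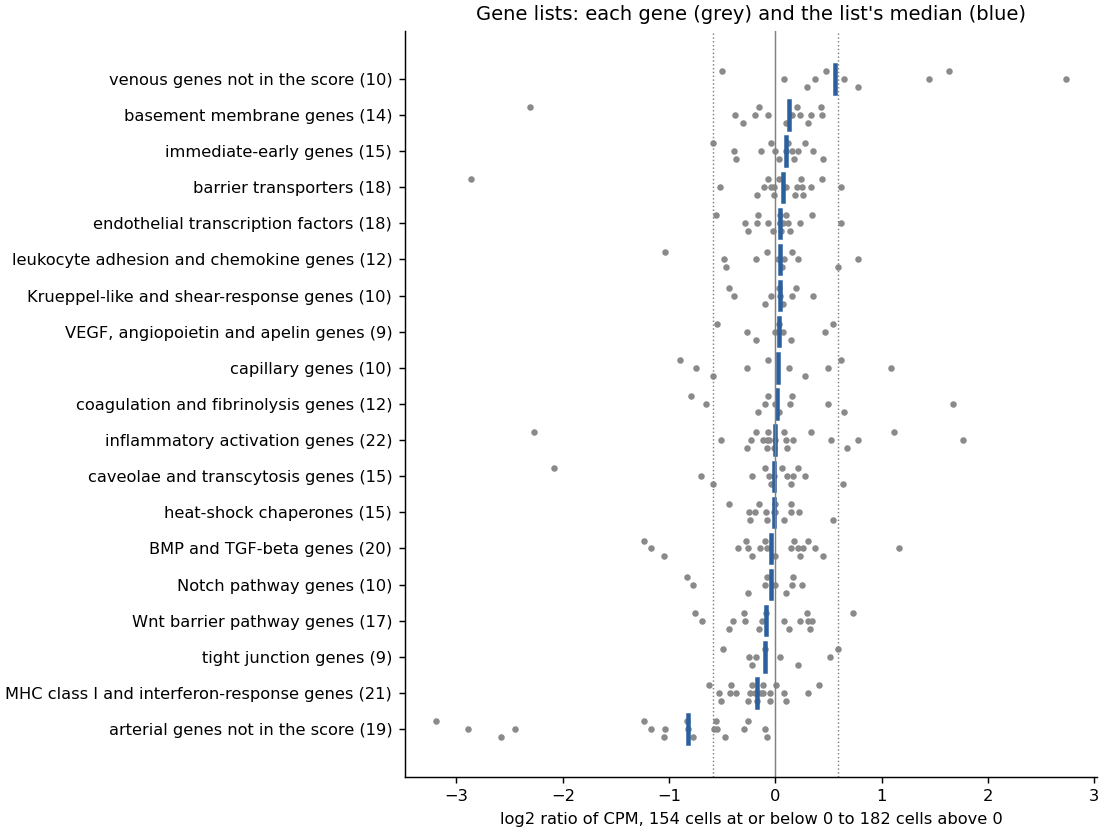
Each grey point is a gene, placed by its log2 ratio of CPM between the 154 low-score cells and the 182 other ECs, in 19 lists given with the number of genes compared. Blue ticks are the list medians and dotted lines mark 1.5-fold. The medians of the venous list (0.56) and the arterial list (-0.82) lie furthest from 0, and all others lie between -0.17 and 0.13.

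The cells carrying each venous gene differed among themselves. The 61 low-score cells with an Nr2f2 UMI were led by Gpihbp1, at 296 CPM against 94.9 in the other 93, with Sowahc, Swt1 and Bambi among the next. The highest of the 61 cells gave 60 of the 214 Swt1 UMIs, 21 of 86 for Sowahc, 28 of 167 for Gpihbp1 and 13 of 136 for Bambi. The 50 cells with a Slc38a5 UMI were led by Fam13a and Cxcl10, with Ccnd1 and Myof among the next, although 42 of the 93 Fam13a UMIs came from 1 cell. Ccnd1 was at 180 CPM with Slc38a5 and 94.0 without. These leading genes were picked for their ratios, so they were looked up in the ECs above 0, which had not been used for the choice.

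In the 23 ECs above 0 with an Nr2f2 UMI, Gpihbp1 was level with the rest (log2 ratio 0.07, -0.61 to 0.67), as were Bambi and Sowahc within their intervals, and Swt1 was higher (0.92, 0.53 to 1.30), with 26 of its 83 UMIs in 1 cell. In the 14 ECs above 0 with a Slc38a5 UMI, Ccnd1 was again higher, at 162 CPM against 63.3 (1.38, 0.63 to 2.03). Fam13a was level with the rest within its interval (0.46, -1.16 to 1.58). Vwf stood at 366 against 147 CPM in these 14 cells (1.32, 0.85 to 1.76). In the low-score cells with and without Slc38a5 it was at 244 against 272 (-0.16, -0.49 to 0.17). Icam1 was lower in the 14 cells, at 70.5 against 198 CPM (-1.42, -2.57 to -0.59). In the low-score cells its ratio was -0.31 (-0.62 to -0.013), but 1 cell gave 55 of the 245 UMIs in those without Slc38a5. Lcn2 was higher in the 14 cells (2.53, 0.76 to 4.04) but level in the low-score cells (-0.044, -1.04 to 0.90). Among the low-score cells Tmem252 was lower with Slc38a5 (-0.24, -0.38 to -0.11). Lrg1 was higher there (1.75, 1.06 to 2.51), with 43 of its 60 UMIs in 1 cell. Cxcl10 came from a single one of these 14 cells, and Myof had a ratio of -0.61 (-1.93 to 0.33). With Nr2f2, Vwf stood at 273 against 143 CPM in the 23 cells above 0 (0.94, 0.54 to 1.32). In the 61 low-score cells it was at 313 against 214 (0.55, 0.22 to 0.88). Icam1 went the other way with Nr2f2, at 97.8 against 207 CPM in the 23 cells (-1.06, -1.69 to -0.53). Its level in the 61 cells was 274 against 360 CPM (-0.39, -0.69 to -0.092). The same cell gave 55 of the 235 Icam1 UMIs in the low-score cells without Nr2f2. Neither Icam1 ratio of the low-score cells was recalculated without that cell. Lrg1 was also lower in the 23 cells (-1.17, -2.12 to -0.42), and Tmem252 was higher in the 61 (0.31, 0.18 to 0.44). Both sets of ECs above 0 were deeper than the rest, with medians of 12236 UMIs for Nr2f2 and 9551 for Slc38a5.

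The 21 ECs with a Vcam1 UMI were spread over the score, 9 in the low-score cells and 12 above 0, and of the 5 genes that led the 9 cells 3 were also higher in the 12. Icam1 was at 1146 CPM (943 to 1380) in the 9 and 545 (430 to 682) in the 12, against 249 and 152 CPM in the cells without Vcam1 on the same side. Fn1, the gene of fibronectin, was at 640 and 397 CPM against 148 and 114. Mgp, matrix Gla protein, an inhibitor of calcification made by arterial and some venous ECs, was at 743 and 1651 CPM against 162 and 245. In rising order of the score the 9 cells held 0, 5, 3, 3, 11, 1, 0, 20 and 29 Mgp UMIs, so that the 2 cells nearest to the cutoff gave most of this level.

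The other 2 leading genes were not. Cstf3, a factor of mRNA cleavage, was at 372 CPM in the 9 cells against 57.0 without Vcam1 (23 of its 36 UMIs in 1 cell), and at 21.3 in the 12 against 53.7 (log2 ratio -1.12, -3.64 to 0.26). Cxcl10 separated the Vcam1 cells by side, with 55 UMIs in the 9 (27 of them in 1 cell, and 5 cells with a UMI) and 1 UMI in the 12. In the 9 cells, Icam1 counts were 9, 23, 22, 21, 11, 8, 6, 0 and 11 in rising order of the score. The arterial score gene Bmx had 80 UMIs in the 12 cells and 21 in the 9, of which 11 were in the cell with 30 Vcam1 UMIs. That cell also held 20 Mgp UMIs and no Icam1 UMI. The 9 cells were deep, with a median of 10510 UMIs against 7035 in the other low-score cells.

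**Figure D5:**
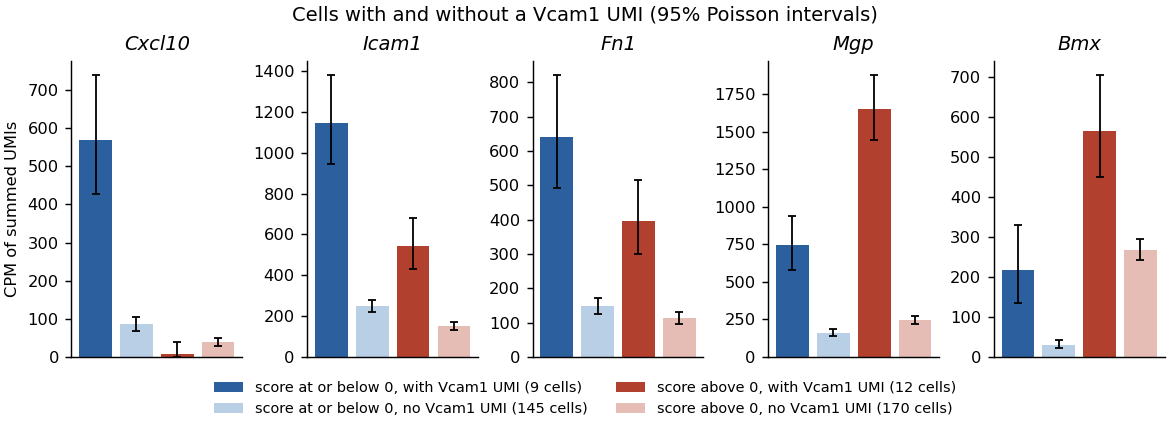
CPM of 5 genes with 95% Poisson intervals in the 9 low-score cells with a Vcam1 UMI, the 145 without, the 12 ECs above 0 with a Vcam1 UMI and the 170 without. Icam1, Fn1 and Mgp are higher with Vcam1 on both sides, and Cxcl10 has 1 UMI in the 12 cells above 0. Bmx belongs to the arterial part of the score and is drawn as a description.

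Markers of other cells were rare in the low-score cells. A count of 0 in these 154 cells allows up to 2.46 CPM. Of 11 macrophage markers 10 were at 0, with Cd68 as the only one detected (4 UMIs), and of 15 mural markers 7 were at 0, with a summed level of 52.5 CPM against 42.0 in the other ECs. The gate itself limits 4 of these 7 (Vtn, Notch3, Kcnj8 and Abcc9), so that their absence shows only the rule. Cspg4, Anpep and Cnn1, also at 0, were not part of the gate. Of the 8 mural markers with a UMI, Des, Higd1b, Ndufa4l2, Acta2, Tagln and Myh11 were not part of it either. The mural sum was 13.7 CPM in the cells below 0 and 98.1 CPM in those at 0. Rgs5, the most abundant mural gene and itself part of the gate, was at 7.60 CPM in the cells below 0 and 85.6 at 0. The 7 lymphatic markers summed to 64.0 CPM in low-score cells and 55.2 in the other ECs, mostly Flt4 (65 of 78 UMIs). Pdpn, Reln and Ccl21a were at 0, while Prox1, Lyve1 and Mmrn1 had UMIs. Flt4, which capillary ECs also express, was at 53.3 against 52.1 CPM. The 7 intermediate-cell markers summed to 124 CPM in low-score cells and 140 in the other ECs, mostly Ptgds (125 of 151 UMIs). Tyrp1 and Pmel were at 0, while Dct, Mlana, Kcnj10 and Kcnj13 had UMIs. The 6 marginal-cell markers summed to 19.7 against 13.8 CPM, mainly Kcnq1 (21 of 24 UMIs). Kcne1 was also detected, and the other 4 markers Lmx1a, Esrrb, Hmx2 and Atp13a5 were at 0.

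Red-cell transcripts were the exception. Haemoglobin genes gave 8290 UMIs in low-score cells, of which 8274 came from 1 cell below 0, where they were 60.7% of its UMIs, and 1669 in the other ECs, of which 1645 came from 1 cell. Without these 2 cells, 270 genes were higher and 289 lower of 6247 compared.

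The same gate passed only 15 of 201 barcodes in the NG2-DsRed library, where 44 cells with EC genes were set aside for mural genes. Its 25th percentile was again 0, and 7 cells lay at or below it and 8 above. Of the 126 venous UMIs in the 7 cells, 119 were Vcam1 UMIs of 1 cell, which also held 21 Icam1 UMIs. This cell (60 Cd74 UMIs) and 1 of the cells at 0 (13) were rich in Cd74, a chaperone of MHC class II, and several ratios in this library rested on them. Slc6a6 had 25 UMIs (493 CPM) in the 7 cells and 58 (1171 CPM) in the 8, a log2 ratio of -1.23 (-1.99 to -0.55). The 2 cells rich in Cd74 held 1 and 0 of the 25 UMIs, and 1 of the 8 cells held 23 of the 58. Without the 2 cells the ratio was -0.38 (-1.15 to 0.31), and without the cell with 23 UMIs as well it was 0.053 (-0.77 to 0.83). All 10 UMIs of Ch25h and all 10 of Csf1 in the 7 cells came from these 2 cells. S100a6 gave 2 UMIs in the 7 cells and 29 in the 8, and 0 and 29 without the 2 cells, but 20 of the 29 came from 1 cell. Glul, lower in low-score cells of the Tie2-GFP library, had a ratio of -0.23 (-0.86 to 0.40) here. It turned to 0.47 (-0.20 to 1.12) without the 2 cells and to 0.84 (0.11 to 1.58) without the highest of the 8 cells as well. Emcn gave 29 and 41 UMIs (-0.53, -1.27 to 0.19). Mt1 was higher in the 7 cells (32 against 4 UMIs, and 27 against 4 without the 2 cells), opposite to the Tie2-GFP library.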

How the data were processed

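For the 2 10x Genomics libraries the deposited values are UMI counts, which the authors had not normalized. The submitters' processing notes name bcl2fastq 2.20.0.422 and the mm10 build. The matrix headers give software version 7.0.0 (Tie2-GFP) and 3.0.0 (NG2-DsRed). Gene positions are from GENCODE for GRCm38. Counts were summed over the cells of each group (Python 3.11.15, numpy 2.4.6, scipy 1.17.1) and scaled to 1000000. A log2 ratio adds 0.5 counts to both sums. Intervals are exact Poisson (CPM), Clopper-Pearson (shares) and conditional binomial (ratios). The calculation was tested on simulated counts. Doublets were kept. Scrublet (scanpy 1.11.5) marked 0 of 633 barcodes when run on all, and 20 when run on those within the mitochondrial limit, of which 6 were members. Named genes were the score genes, the 12 highest and 12 lowest ratios, 8 each way between cells below and at 0, up to 4 of each of 19 lists (largest ratio or most abundant), the leading marker of each other cell type, and 5 that lead the cells with each venous gene. Others were chosen after their values were seen, among them Flrt2, Vwf, Nrp2 and Plvap. Members and lists were chosen with earlier results of these data known. Some genes that are included in the counts and medians of lists are not reported here by name.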

Additional observations from a re-analysis of the deposited data

How the results depend on the processing

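Of 22 alternatives, 16 were planned and 6 were chosen after seeing the data (3 splits of the ties at 0, the highest cell of each gene left out, 2 cells rich in haemoglobin left out, and cells between the 25th and 75th percentiles of UMIs). The 35th percentile of the score was also 0 and changed nothing. The counts of 271 higher and 308 lower of 6287 genes moved to 546 and 546 at the 15th percentile. They were 588 and 519 against the highest-scoring cells and 46 and 75 at 2-fold. For cells below 0 against cells above 0 they were 437 and 500, while cells at 0 gave 499 lower genes. These settings all compared 6287 genes. With a minimum of 10 UMIs the counts were 1022 and 997 of 10138 genes, and with one of 200 they were 43 and 62 of 2291. The venous median stayed between 0.35 and 0.74, and the arterial median between -1.0001 and -0.41 except with the venous genes alone, where it was -0.090. Of 2584 recalculated gene ratios, including the unchanged ones of the 35th percentile, 1140 were of genes past 1.5-fold, and 23 of these turned direction. Among the rest, of genes within 1.5-fold, 171 changed sign. Besides the 23, 485 ratios of either kind left their counting interval. Of the genes past 1.5-fold, with the venous genes alone Ccn2 (-0.037), Ch25h (-0.14), Tcf15 (-0.27), Ltbp4 (0.65), Mgp (1.24), Procr (0.30), Stmn2 (0.14), Tgfb2 (0.38), Fbln5 (2.13) and Clu (0.91) turned. At the 15th percentile Ccn2 (-0.0020) and Tcf15 (-0.089) did, for cells below 0 against all others Csf1 (-0.016) and Tcf15 (-0.013), for cells at 0 Ifit3 (0.071), against intermediate cells Csf3 (0.22), and between these percentiles Csf3 (4.63) and Icam1 (-0.083). Hba-a1, most of whose UMIs lay in 1 low-score cell and 1 other EC, turned to -10.59, -8.83, -9.98, -5.42 and -0.61. In the NG2-DsRed library, without 2 cells rich in Cd74 and the others' highest cell of each gene, 2 further alternatives chosen after seeing the data, Slc6a6 turned to 0.053, Fbln2 to 1.17 and Glul, within 1.5-fold there, to 0.84 (0.47 without the Cd74 cells alone, where Ccn2 turned from 0.17 to -1.24). The causes were not tested. No paired analysis was possible because each line gave 1 library. Depth limits genes with few UMIs, where a 1.5-fold difference can lie within counting error. This holds under 50 UMIs and also for compared genes not far above that minimum. The counts of higher and lower genes can therefore include such genes.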
